A study of Homo sapiens with 3 samples.

Results

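APRT (adenine phosphoribosyltransferase) and 9 other enzymes of purine synthesis and salvage were followed through ribosome profiling libraries of HEK293T cells, which derive from human embryonic kidney and carry the SV40 large T antigen. The method sequences the stretches of mRNA shielded by ribosomes, so reads in the coding sequence (CDS) report translating ribosomes and reads in the 3′UTR report ribosomes past the stop codon. There were 3 libraries: Untreated A and Untreated B from cells given no drug (0 µg/mL), and G418 A from cells given 500 µg/mL of G418, all labelled with 24 h. The aminoglycoside G418 acts on the decoding center of the ribosome and raises readthrough, the insertion of an amino acid at a stop codon. All cells were the same transformed line grown in dishes, the study describes such libraries as biological replicates although the labels do not mention separate cultures, and no other sample is analysed here.

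The 10 enzymes were chosen by gene symbol, and 8 of the 10 were listed in all 3 libraries: APRT, HPRT1, PRPS1, PRPS2, GART, PAICS, ATIC and IMPDH2. ADK and ADSL were listed in none of the 3 tables, and no value is given for them. The series listed 8812 transcripts in all 3 libraries, 1 per gene, and 5684 of these had enough CDS reads on average for testing; all 8 listed enzymes passed this minimum. APRT stands apart within the group because the authors' annotation gives its 3′UTR no stop codon in frame. It is also a gene that the study displays for its 3′UTR ribosomes, so its 3′UTR signal is not independent evidence.

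Purine nucleotides are made along a pair of routes. In de novo synthesis, PRPP (phosphoribosyl pyrophosphate) is built up step by step to IMP, which is then turned into AMP or GMP. In salvage, free bases are joined directly to PRPP. PRPP synthetases (PRPS1, PRPS2) therefore feed both routes, GART, PAICS and ATIC are multifunctional de novo enzymes, IMPDH2 commits IMP to guanine nucleotides, and APRT and HPRT1 salvage adenine and hypoxanthine or guanine. Salvage and de novo enzymes are housekeeping genes of dividing cells.

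The RPM values corresponded to 5857230, 9477972 and 7216039 reads for the Untreated A, Untreated B and G418 A libraries respectively, and later values keep that order. Reads listed in 3′UTRs numbered 15358, 21682 and 130411, against 3838477, 6288190 and 4869512 in CDSs. Of 8 genes associated with HEK293 cells, 7 were listed in all 3 libraries, with VIM between 1710 and 2163 RPKM and PAX2 in 1 library alone. Of 6 markers of other cell types, 5 were listed in none and COL1A1 lay between 7.98 and 10.7 RPKM.

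The stop codons of the 8 enzymes decide which readthrough region each one has, so they are shown first. Each line gives 9 bases of the CDS, then the stop codon and the following base in capitals, which together form the 4-nucleotide stop signal, and then the start of the 3′UTR. An in-frame stop codon inside the window is also in capitals. The sequences are the sense strand of hg38 with the transcript models of GENCODE release 44, and the stop signal, the CDS and 3′UTR lengths and the number of in-frame 3′UTR stops were the same in the reference and the deposited annotation for 8 of 8.
APRT: cagtatgagTGACcacagggcctcccagcc
IMPDH2: cggcttttcTGAAaagggatccagcacacc
GART: aaagaggaaTGAAgccttttaattcagaaa
PRPS1: gggcccaaaTGAAcattgtaccatagtctt
ATIC: ttccaccacTGATtttaccacacactgttt
PRPS2: gtcccgctaTAAAtccagaatgggaagtgt
PAICS: tgtaatttaTAAGaaagaatgccattgaat
HPRT1: tacaaagccTAAGatgagagttcaagtTGA

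Of the 8, 5 end in UGA (APRT, IMPDH2, GART, PRPS1, ATIC) and 3 in UAA (PRPS2, PAICS, HPRT1). The APRT stop codon lies at chr16:88809698-88809700 on the minus strand, in exon 5 of 5, and its 3′UTR of 359 nt holds 0 in-frame stops and 4 stops in the other two frames. The IMPDH2 stop is at chr3:49024383-49024385 on the minus strand (exon 14 of 14), and its single in-frame 3′UTR stop ends 48 nt downstream. The GART stop is at chr21:33504124-33504126 on the minus strand (exon 22 of 22), with the first of 6 in-frame stops ending at 99 nt. The PRPS1 stop is at chrX:107650740-107650742 on the plus strand (exon 7 of 7), with the first of 9 in-frame stops ending at 72 nt.

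The ATIC stop is at chr2:215349653-215349655 on the plus strand (exon 16 of 16), with the first of 2 in-frame stops ending at 42 nt. The PRPS2 stop is at chrX:12822794-12822796 on the plus strand (exon 7 of 7), with the first of 28 in-frame stops ending at 36 nt. The PAICS stop is at chr4:56459536-56459538 on the plus strand (exon 10 of 10), with the first of 41 in-frame stops ending at 84 nt. The HPRT1 stop is at chrX:134500075-134500077 on the plus strand (exon 9 of 9), and the first of its 15 in-frame stops ends only 18 nt downstream, inside the printed window. A ribosome that stayed in frame past the normal stop would thus meet the next stop soonest in HPRT1 and would meet none in APRT.

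**Figure D1:**
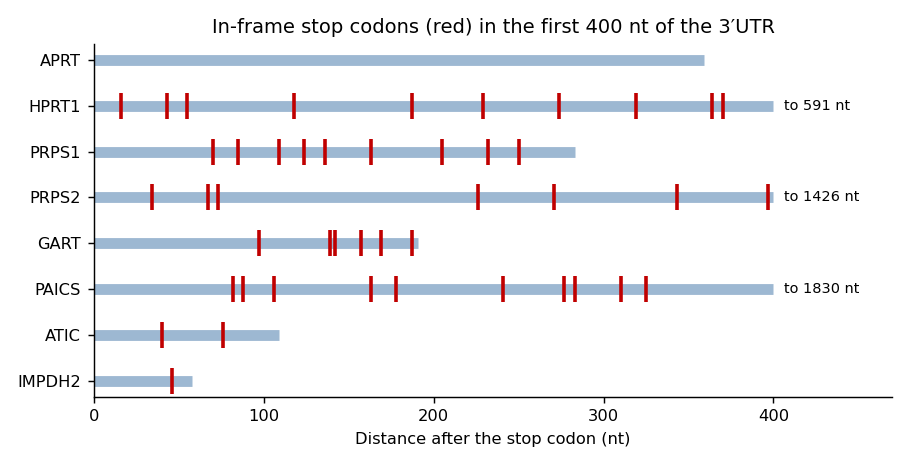
Map of the 3′UTRs of the 8 enzymes, with the distance after the stop codon in nt on the horizontal axis and 1 blue bar per enzyme, drawn to at most 400 nt. Red marks are in-frame stop codons; APRT has 0 over its 359 nt, whereas HPRT1 has its first within 18 nt.

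The first comparison asked whether ribosome density on the CDS differed between G418 and untreated cells. No enzyme passed the test, and the CDS densities of 7 of 8 differed between groups by a log2 change of no more than 0.38 in size, with PRPS2 at -0.52. CDS density is given in RPKM, read density scaled to CDS length and library size. It moves with the amount of mRNA as well as with its translation, and without RNA libraries here these cannot be told apart.

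Of the salvage enzymes, APRT had 178 and 240.0 RPKM in the untreated libraries and 173 with G418. The G418 value was just below the lower untreated value, and the untreated libraries differed from each other far more than that (209 ± 43.5, SD, n = 2). The log2 change of APRT was -0.34 with an SE of 0.20 (edgeR quasi-likelihood test, Benjamini-Hochberg adjusted p = 0.458). In RPM, with no TMM scaling, it was -0.04 against Untreated A alone and -0.47 against Untreated B alone, so its size rests on Untreated B. HPRT1 had 500.1, 419 and 453 RPKM in the same order, with G418 A between the untreated libraries (log2 change -0.09, edgeR adjusted p = 0.889).

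Of the PRPP synthetases, PRPS2 had 201 and 217 RPKM untreated and 153 with G418. G418 A was lower than both untreated libraries, and the change of -0.52 (SE 0.19) was the most negative among the 8, but it did not pass the adjustment (edgeR adjusted p = 0.120). PRPS1 had 110.2, 106 and 118 RPKM, with the G418 library slightly above both (log2 change 0.05, edgeR adjusted p = 0.955). The annotation of PRPS1 limits this value, since 2 of its coding transcripts use the listed stop and 6 use another. Among these 6, an isoform with its stop at chrX:107650030-107650032 has a CDS of 957 nt, beside 966 nt for the listed transcript. It shares 83.2% of the listed CDS bases, so CDS reads of the isoforms cannot be told apart. Transcripts with another stop also share 77.2% of the listed CDS bases of APRT, 55.6% of PRPS2, 42.8% of GART and 36.7% of ATIC, and 0 of HPRT1, PAICS and IMPDH2.

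Of the de novo enzymes, GART had 152, 138 and 117 RPKM, ATIC 197, 173 and 164, and PAICS 350, 344 and 354. GART and ATIC were below both untreated libraries in G418 A, by -0.38 (edgeR adjusted p = 0.324) and -0.24 (0.605) on the log2 scale, and PAICS was nearly level at -0.04 (0.961). IMPDH2, the step to guanine nucleotides, had 133, 136 and 136 RPKM (log2 change -0.05, edgeR adjusted p = 0.951). PAICS and IMPDH2 became slightly positive when library read totals alone were used for scaling.

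Across the 5684 transcripts, 2.66% were called in the CDS comparison (110 higher, 41 lower), against 0 of the 8 enzymes. At an unadjusted p under 0.05, PRPS2 (0.0060) and GART (0.038) passed by edgeR as did 460 higher and 315 lower transcripts in all; DESeq2 also called 0 of the 8 after adjustment. The log2 changes of the enzymes had a median of -0.17, and 7 of 8 were negative, beside 50.0% of all transcripts. With a single G418 library, its spread was assumed to equal that of the untreated pair.

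**Figure D2:**
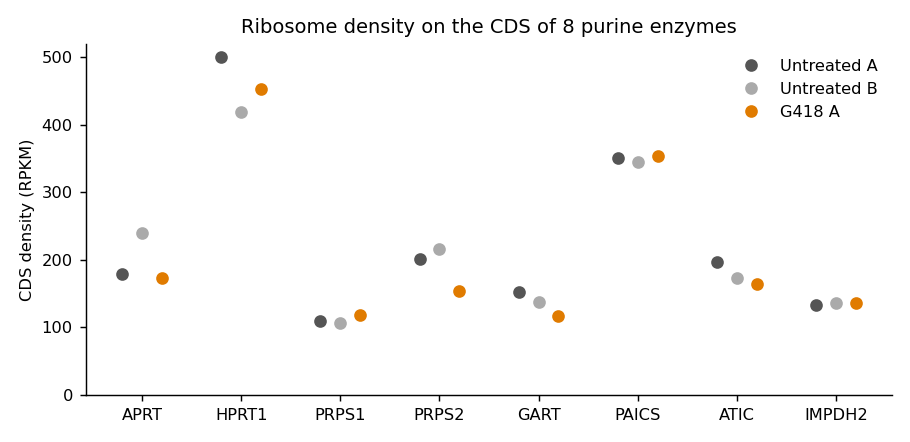
CDS ribosome density in RPKM (vertical axis) for the 8 enzymes, with 1 point per library and no error bars because each point is a single library. PRPS2 and GART are lower in G418 A than in both untreated libraries, while HPRT1 in G418 A (453) lies between the untreated values (500.1 and 419).

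The second comparison asked how many ribosomes were found past the stop codon. Occupancy is the read density of the 3′UTR as a percentage of the CDS density of the same transcript and library. In G418 A it was 37.1% for APRT, 25.5% for IMPDH2, 18.6% for GART and 12.3% for ATIC, and between 0 and 1.26% for the other four. APRT was the only enzyme of the 8 whose 3′UTR reads per CDS read passed the test, and it was called higher in G418. GART had a log2 change of like size, 4.91 (SE 2.65) on 29 reads in G418 A, beside 4.96 (SE 1.04) on 164 for APRT. ATIC had 7.08 (SE 4.24) on 15 reads, so the call does not set the size of the APRT change apart.

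APRT had 10 and 0 reads in its 3′UTR in the untreated libraries and 164 with G418, beside 533, 1160 and 638 CDS reads. Its occupancy was thus 2.71%, 0% and 37.1%, and the G418 value has an exact 95% (Clopper-Pearson) interval of 31.1% to 44.2%. For a count of 0, a limit of 3 reads was used, here 0.374%, beside an exact 95% upper limit of 0.460%. Folds and ratios given as at least use the limit of 3 reads and leave out the counting error of the other value. The untreated libraries did not overlap with the G418 library, although they differed from each other by more than counting error. The G418 value was 27.4 times the untreated mean, 13.7 times the value of Untreated A alone and at least 99.4 times that of Untreated B alone, so the size of the fold depends on which untreated library is used. The log2 change was 4.96 with an SE of 1.04 (edgeR quasi-likelihood test with CDS reads as offset, adjusted p = 1.66e-04). In this test 6.28% of all transcripts were called, 357 higher and 0 lower (879 and 1 at an unadjusted p under 0.05), so the call of APRT is 1 among many. With DESeq2 the log2 change of APRT was 4.81 and the adjusted p 0.457, and DESeq2 called 0 transcripts (550 at an unadjusted p under 0.05). With 3′UTR reads alone scaled by TMM, and no CDS offset, the log2 change was 2.54 and the edgeR adjusted p 0.506. The test took its spread from the trend over all transcripts, since edgeR estimated infinite prior degrees of freedom, so the difference of 10 against 0 reads between the untreated libraries did not enter the p of APRT.

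IMPDH2 had 3, 3 and 13 reads in its short 3′UTR, and 7.41%, 4.48% and 25.5% occupancy (interval in G418 A 13.5% to 43.7%). It had the highest untreated occupancy of the 8, and its G418 value was 4.28 times the untreated mean. GART had 2, 0 and 29 reads and 1.21%, 0% and 18.6% occupancy (12.4% to 26.7%), 30.6 times its untreated mean and 15.3 times the value of Untreated A alone. ATIC had 0, 0 and 15 reads and 12.3% occupancy in G418 A (6.89% to 20.4%), at least 5.73-fold higher than the mean of the per-library limits that counts of 0 allow. IMPDH2, GART and ATIC were higher in the G418 library than in either untreated library, and all 3 missed the adjusted threshold (edgeR adjusted p = 0.661, 0.377 and 0.440). Such a rise was general: 83.4% of all 5684 transcripts had a positive log2 change in this test, with a median of 3.15. Of the 8 enzymes 7 were positive, with a median of 2.69.

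HPRT1 had 4, 1 and 24 reads in its 3′UTR, or 0.233%, 0.0431% and 1.26% of CDS density. PAICS had 3, 16 and 39 reads, or 0.0802%, 0.269% and 0.837%, and PRPS2 had 2, 10 and 15, or 0.119%, 0.343% and 0.954%. HPRT1, PAICS and PRPS2 end in UAA and have the longest 3′UTRs of the group (591, 1830 and 1426 nt). Their G418 values were 9.09, 4.80 and 4.13 times the untreated means, without passing the adjusted test (edgeR adjusted p = 0.490, 0.315 and 0.555). Against Untreated A or Untreated B alone these folds were 5.38 or 29.2 for HPRT1, 10.4 or 3.11 for PAICS and 7.99 or 2.78 for PRPS2, each resting on few untreated reads. PRPS1 had 0 reads in its 3′UTR in each library, which allows up to 1.28% in G418 A.

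Set against the other enzymes in G418 A, the occupancy of APRT was 1.46 times that of IMPDH2 (interval from the counts 0.823 to 2.58), 2.0 times that of GART (1.34 to 3.00) and 3.01 times that of ATIC (1.76 to 5.15). It was 29.6 times that of HPRT1 (19.1 to 45.8), 38.9 times that of PRPS2 (22.7 to 66.7) and 44.4 times that of PAICS (31.0 to 63.5), and at least 29.1 times that of PRPS1. CDS reads of PRPS1 isoforms that end at another stop were not separated in this bound. APRT and IMPDH2 were therefore not distinguishable at this depth, while the others lay below APRT beyond counting error. These intervals cover counting error within 1 library, and genes are not replicates, so no test was made between them.

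The whole 3′UTR is a different length of sequence for each enzyme and holds bases past the next in-frame stop. The ribosome readthrough score (RRTS) restricts the measure to the region between the normal stop codon and the first in-frame 3′UTR stop, again as a percentage of CDS density. By its listed length the region runs to the end of that stop, less 6 nt left out (HPRT1: 12 nt, with the stop ending at 18 nt). It thus takes in that stop codon, which APRT lacks, and any effect on the comparison was not tested. For APRT, which has no such stop, the region of 347 nt held the same 164 reads, so its RRTS was 2.76% and 0% untreated and 37.8% (31.6% to 44.9%) with G418. On this scale the other UGA enzymes with reads came close to APRT: IMPDH2 reached 31.5% (16.8% to 54.1%), GART 30.6% (19.5% to 45.6%) and ATIC 25.9% (12.9% to 46.4%). Each of these 3 intervals overlaps that of APRT.

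Of the UAA enzymes, PAICS and HPRT1 lay below APRT by RRTS beyond counting error, and PRPS2 did not. PAICS had 2, 10 and 30 reads in the region and an RRTS of 1.25%, 3.93% and 15.1% (10.1% to 21.5% in G418 A). PRPS2 had 0, 0 and 6 reads and 18.1% (6.61% to 39.5%) in G418 A. HPRT1 had 0 reads in the region in each library, but its measured region is only 12 nt long and 0 reads allow up to 7.65%. PRPS1, a UGA enzyme, had 0 reads in 66 nt in each library, which allows up to 5.35% in G418 A.

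**Figure D3:**
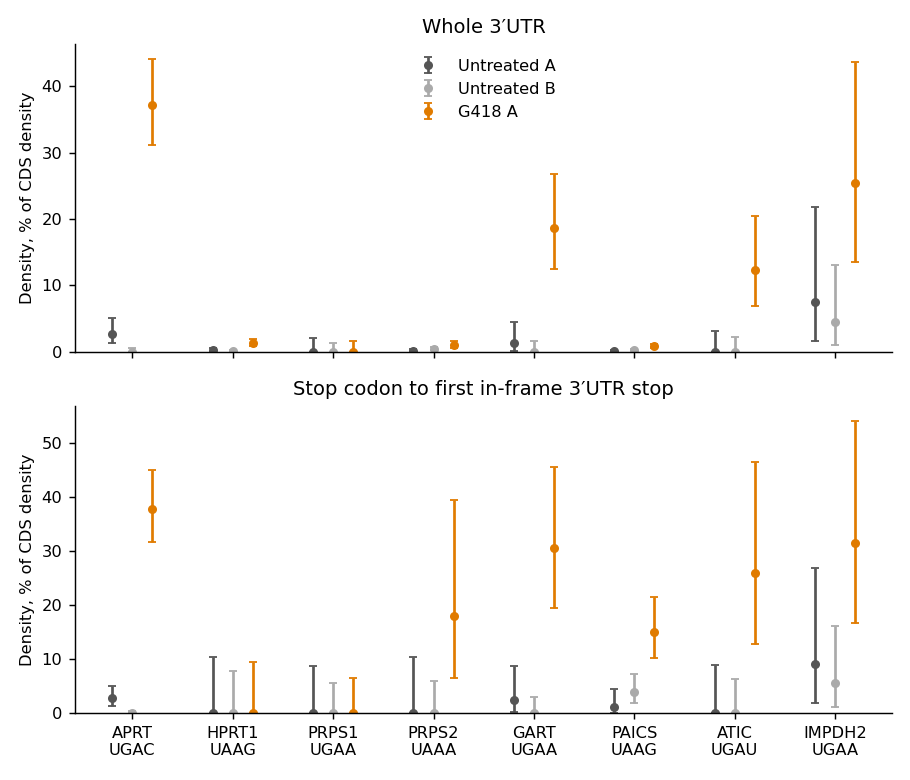
Density past the stop codon as a percentage of CDS density (vertical axes) for the 8 enzymes in 3 libraries, over the whole 3′UTR (top) and from the stop codon to the first in-frame 3′UTR stop (bottom), with exact 95% intervals from the counts as bars. APRT (37.1%) stands above GART, ATIC and the UAA enzymes in the top panel, while its bar overlaps those of IMPDH2, GART, ATIC and PRPS2 in the bottom panel.

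The ratio of APRT to the median of the other enzymes was accordingly 29.6 for the whole 3′UTR and 2.09 by RRTS. By RRTS, APRT was 1.20 times IMPDH2 (0.676 to 2.12), 1.24 times GART (0.798 to 1.91), 1.46 times ATIC (0.788 to 2.70) and 2.09 times PRPS2 (0.921 to 4.75), and each of these intervals includes equality. It was 2.51 times PAICS (1.68 to 3.74), at least 4.94 times HPRT1 and at least 7.06 times PRPS1. The PRPS1 bound takes all its CDS reads as those of the listed transcript, although isoforms with another stop were not separated. Reads past the first in-frame stop numbered 24 for HPRT1, 9 for PAICS, 9 for PRPS2, 5 for GART, 4 for ATIC and 0 for IMPDH2 and PRPS1 in G418 A. The regions past that stop were 573, 1746, 1390, 92, 67, 10 and 211 nt long in the same order. The 0 of IMPDH2 thus rests on 10 nt and says little. In HPRT1, all 24 of its 3′UTR reads thus lay beyond the first in-frame stop, at 1.28% of CDS density. In GART and PAICS the density past that stop was 6.44% and 0.202% of the CDS, below the 30.6% and 15.1% before it.

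The enzymes were also set beside all tested transcripts with the same 4-nucleotide stop signal in G418 A, whose reads were pooled (the enzyme included). For UGAC, 561 transcripts had a pooled RRTS of 38.7%, and APRT at 37.8% lay at the 48.8th percentile; the pooled rate would give 168 reads in its region, and 164 were counted. For UGAA, 788 transcripts pooled to 32.8%. That rate corresponds to 25.8 reads for GART (24 counted), 13.5 for IMPDH2 (13 counted) and 18.4 for PRPS1 (0 counted). For UGAU, 376 transcripts pooled to 36.4%, or 15.5 reads for ATIC (11 counted). APRT, GART, IMPDH2 and ATIC thus lay near the level of their stop signal. PRPS1 lay far below it, but its rate takes all its CDS reads as those of the listed transcript. An isoform with another stop shares 83.2% of those CDS bases, so the reads that belong to the listed stop cannot be told.

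The UAA enzymes with reads lay above their signals. The 412 UAAG transcripts pooled to 8.56%, or 17.1 reads for PAICS (30 counted) and 3.36 for HPRT1 (0 counted). The interval of PAICS (from 10.1%) excludes that rate, but it covers counting error only. The exact upper limit of HPRT1 (9.42%) lies above that rate. Among the UAAG transcripts PAICS lay at the 71.1st percentile, so many were higher. The 662 UAAA transcripts pooled to 10.96%, or 3.64 reads for PRPS2 (6 counted), a rate inside its interval. PRPS2 lay at their 69.0th percentile. An RRTS of 0 was seen in 18.5% of UGAA and 36.9% of UAAG transcripts, so PRPS1 and HPRT1 are not alone at 0. Isoforms that end at another stop were not separated for PRPS1, nor for APRT, PRPS2, GART and ATIC, and their part in these values was not tested.

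**Figure D4:**
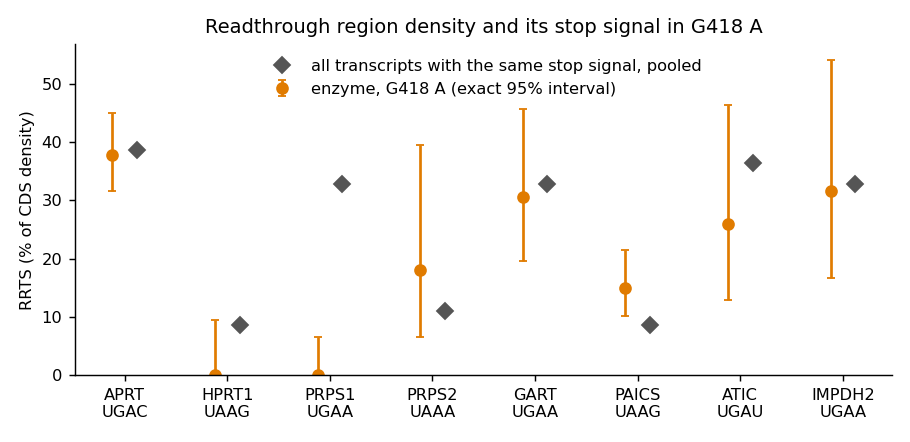
RRTS in G418 A as a percentage of CDS density (vertical axis) for the 8 enzymes (orange, exact 95% interval) beside the pooled value of all tested transcripts with the same stop signal (grey diamonds). APRT (37.8%) sits at its UGAC value (38.7%), PAICS (15.1%) above its UAAG value (8.56%) and PRPS1 (0) below its UGAA value (32.8%). CDS reads of PRPS1 isoforms with another stop were not separated.

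Among all 5684 transcripts, the occupancy of APRT in G418 A lay at the 97.03rd percentile, with 168 transcripts above it, whereas its RRTS lay at the 70.6th. There were 242 tested transcripts without an in-frame 3′UTR stop. Their median occupancy was 12.2%, APRT lay at the 83.1st percentile with 40 above it, and its 3′UTR was the 14th longest beside a median of 75.5 nt. Of the 21 with a 3′UTR of at least 300 nt, only 2 were higher than APRT, and their median was 11.7%. The 5442 transcripts with an in-frame stop had a median occupancy of 2.41% over a median 3′UTR of 1008 nt. By RRTS the order turned, with a median of 13.3% without and 18.6% with an in-frame stop.

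**Figure D5:**
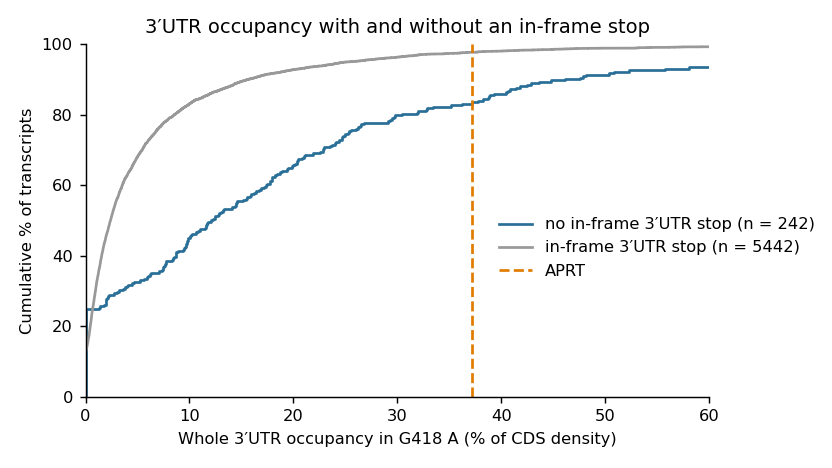
Cumulative percentage of transcripts (vertical axis) by whole 3′UTR occupancy in G418 A as a percentage of CDS density (horizontal axis, cut at 60), for 242 transcripts without and 5442 with an in-frame 3′UTR stop. The dashed line marks APRT at 37.1%, which 40 of the 242 exceeded.

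The 5 transcripts without an in-frame 3′UTR stop whose occupancy over the 3 libraries was most like that of APRT, by Euclidean distance of log2(occupancy ratio + 0.01), were SLC3A2 (0.416), RNH1 (0.634), CHEK2 (0.662), VPS28 (0.845) and SRM (0.879). SLC3A2, a subunit of amino acid transporters, had 3.92%, 0% and 39.3% and was the only one of the 5 with the UGAC signal; RNH1, VPS28 and SRM end in UGAG and CHEK2 in UGAA. SRM, spermidine synthase, had 70 reads and 29.7% in G418 A, but CHEK2, a checkpoint kinase, had only 8 reads. The distances are over 3 libraries and describe likeness of these values alone.

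The wider pathway was described with 11 lists of 76 genes, of which 50 were listed and 40 tested. In the CDS comparison 0 of the 40 were called, with 20 positive and 20 negative log2 changes and a median of -0.01, beside the 2.66% called among all transcripts. Purine de novo synthesis had 7 tested genes with a median of -0.24, of which 5 were negative; besides the enzymes above, these held PFAS (-0.27) and PPAT (0.12), the amidotransferase of the first committed step. All 3 tested salvage genes were negative. IMPDH1, the second IMP dehydrogenase, was at 0.72 (SE 0.31, edgeR adjusted p = 0.259).

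The nucleotide kinases had 4 tested genes with 0 called; GUK1 (1.07, edgeR adjusted p = 0.0613) and AK3 (0.70, adjusted p = 0.113) had the most positive values and NME3 was at -0.10. Both tested subunits of ribonucleotide reductase, RRM2B (-0.74, edgeR adjusted p = 0.0973) and RRM1 (-0.32, adjusted p = 0.438), were negative without passing. PRPSAP1, a PRPP synthetase-associated protein, was at 0.13. The nucleoside transporter SLC29A1 was at 0.25, and of the other phosphoribosyltransferases UMPS was at 0.07 and NAPRT at -0.23.

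In the 3′UTR comparison, 7 of the 40 were called, all higher in G418, beside 6.28% of all transcripts. Each of the 7 had at least 72 reads in its 3′UTR in G418 A. Besides APRT they were PNP, ITPA, SHMT2, MTHFD2, TYMS and UCK2. PNP, purine nucleoside phosphorylase, releases bases for salvage; it had 0, 0 and 120 3′UTR reads and 16.9% occupancy in G418 A, at least 43.4-fold higher than the limit of the untreated zeros (edgeR adjusted p = 4.42e-05). ITPA, which clears inosine triphosphate, had 4, 7 and 91 reads and 1.29%, 1.45% and 22.0% (log2 change 3.97, edgeR adjusted p = 0.0125).

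SHMT2 and MTHFD2, mitochondrial enzymes of one-carbon supply, had 112 and 96 reads in G418 A and log2 changes of 5.46 and 5.21 (edgeR adjusted p = 5.89e-04 and 0.00555). TYMS, thymidylate synthase, and UCK2, a uridine-cytidine kinase, had 114 and 72 reads and log2 changes of 4.60 and 5.79 (edgeR adjusted p = 0.00222 and 0.0291). PNP, ITPA and UCK2 share the UGAC signal with APRT, and by RRTS in G418 A they had 38.6%, 41.0% and 43.4%, beside 37.8% for APRT. The other tested UGAC genes of the lists spread more widely, with PFAS at 64.5%, SLC29A1 at 27.3% and GUK1 at 0%. Each of the 6 genes called besides APRT has at least 3 in-frame 3′UTR stops, unlike APRT.

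The last comparison, added after the values were seen, concerned the 5′UTRs. GART had 30 and 54 reads in its 5′UTR untreated and 10 with G418, or 1.12 (0.756 to 1.61), 1.38 (1.03 to 1.80) and 0.395 (0.189 to 0.727) per 100 CDS reads. The G418 interval lies below both untreated ones, with a log2 change of -1.66, but the difference did not pass the adjustment (edgeR adjusted p = 0.817). PRPS1 had the most 5′UTR reads, 90, 57 and 63, or 14.95, 6.07 and 7.95 per 100 CDS reads, and the untreated libraries differed from each other by more than counting error. PAICS had 20, 33 and 15 reads, and APRT 0 in each library. Of all transcripts 0.932% were called by this test, 3 higher and 50 lower in G418, against 0 of the 8 enzymes; DESeq2 called 0 in all, and at an unadjusted p under 0.05 it passed 6 higher and 88 lower.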

How the data were processed

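Ribosome profiling was analysed in 3 libraries of HEK293T cells: Untreated A and B and G418 A. Per the study's methods and the submitters' processing notes (CASAVA 1.8, STAR), the authors collapsed duplicates by molecular identifiers, discarded noncoding RNA reads, aligned to hg38 with up to 200 positions allowed and 1 alignment kept, and assigned 28 to 35 nt fragments to 1 transcript per gene. Reads from near-identical copies (pseudogenes, or the paralogs PRPS1 and PRPS2) could therefore be placed on either copy. The deposited tables hold RPM per region, whole-number counts, RPKM densities, and ratios of densities (3′UTR occupancy and RRTS), which the authors computed after leaving out 18 nt and 15 nt at the ends of the CDS and 6 nt after the stop codon.

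RPM values were whole multiples of 1 read (tolerance 0.01 read; 100.0% of values in each library), and these reads were used; the deposited counts were often 1 lower. In place of a test on the deposited counts this is the main input, and the deposited counts are an alternative. Transcripts whose mean CDS reads reached 128, the study's minimum, were tested with edgeR 4.0.16 (quasi-likelihood, TMM, R 4.3.3), 3′UTR and 5′UTR reads with the log CDS reads as offset, and p-values were Benjamini-Hochberg adjusted over all 5684 (threshold 0.05). With 2 untreated libraries and 1 G418 library, there was 1 residual degree of freedom, so spread could be estimated only from the untreated pair. The study describes such libraries as biological replicates, and the labels do not describe them further. In the CDS and 3′UTR fits, p-values rest on the trend of that spread over all transcripts. The prior degrees of freedom were estimated as infinite in the CDS and 3′UTR fits, so each transcript's own spread was replaced by the trend. The SE given beside an edgeR log2 change was derived from the test, as the absolute log2 change divided by the square root of the F statistic. DESeq2 1.42.0 was the other tool. The CDS, 3′UTR and 5′UTR fits were each tested on simulated data. Exact 95% intervals and the limit of 3 counts for a count of 0 cover counting error only.

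The enzymes and lists were chosen with earlier results of these data known. Named genes are the 10 enzymes; from each list, those with an adjusted p under 0.05 in either test or, where none passed, the 3 with the largest absolute log2 change; and the 5 transcripts most like APRT. Sequences are from hg38 and GENCODE release 44.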

Additional observations from a re-analysis of the deposited data

How the results depend on the processing

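No enzyme was called in the CDS comparison under any alternative run (DESeq2 size factors, read totals, deposited counts, CDS minimums of 20 or 500 or none, DESeq2). The transcripts called higher numbered 110 in the main analysis, 173 with read totals alone, 10 with DESeq2 and 21 with a minimum of 500; those called lower fell from 41 to 12 with DESeq2 and to 12 with a minimum of 500. Read totals moved the median of all transcripts by 0.07 on the log2 scale and turned PAICS to 0.0276 and IMPDH2 to 0.0168; the minimum of 500 turned them to 0.0130 and 0.00198. The call of APRT in the 3′UTR was kept with CDS minimums of 20 or 500 and with a minimum of 10 3′UTR reads in all, and lost with 3′UTR reads alone under TMM scaling (log2 change 2.54, adjusted p = 0.506) and with DESeq2 (4.81, adjusted p = 0.457). Using 3′UTR reads alone drops the CDS offset and scales by TMM; it moved the median log2 change of all transcripts from 3.15 to 1.02, called 23 higher and 1 lower in place of 357 and 0, and turned PRPS2 to -0.91, PAICS to -0.20 and IMPDH2 to -0.24. DESeq2 called 0 in the 3′UTR, and for the 5′UTR 0 higher and 0 lower in place of 3 and 50; these causes were not tested. RRTS in place of the whole 3′UTR moved the ratio of APRT to the median of the other enzymes from 29.6 to 2.09. The rise of APRT occupancy was 35.8 percentage points, and 34.4 to 37.1 when either untreated library was left out; as a fold it was 27.4, and 13.7 without Untreated B or at least 99.4 without Untreated A. Leaving one out leaves 1 library on each side and no residual degree of freedom, so there is no test. Against Untreated A or B alone in RPM, the CDS log2 change of HPRT1 was -0.14 or 0.11, and the PAICS and IMPDH2 values were slightly positive.

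No paired analysis was possible because the groups share a single replicate letter, A. Depth limits the small regions most: HPRT1, PRPS1, IMPDH2, ATIC and PRPS2 had at most 13 reads between stop codons in G418 A.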

Other observations

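The deposited whole-number CDS count was 1 below the reads behind the RPM value for 9080 of 9099 transcripts in Untreated A, 283 of 9311 in Untreated B and 72 of 9370 in G418 A. All 242 tested transcripts without an in-frame 3′UTR stop had a readthrough region 6 nt shorter than their listed 3′UTR, and 216 of them had the same reads in both regions in all 3 libraries, APRT among them.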
